A study of Ambystoma mexicanum with 17 samples.

Results

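The later step of the culture series compares explants of axolotl oropharyngeal endoderm harvested at stage 41 with explants harvested at stage 39. The libraries were chosen by the stage in their labels, 5 at stage 41 and 6 at stage 39, which is 11 of the 17 libraries of the series. The axolotl (Ambystoma mexicanum) is a salamander. Per the labels, the endoderm was cut out of embryos at stage 15, cultured in a medium with albumin and antibiotics, and collected at the time when whole siblings were at the stage named. Both groups share this treatment and differ in stage. Explants of stage 41 were thus also in culture for longer, so stage and time in culture cannot be told apart below. Genotype, strain, sex and the number of explants behind a library are not stated in the labels. The labels call the libraries replicates without saying that they came from separate embryos or cultures, so a p-value reflects variation among these libraries, some of which may be technical.

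Oropharyngeal endoderm is the innermost embryonic layer, which will line the mouth and throat, and in the axolotl it gives rise to the taste buds of that lining. Endoderm isolated before nerves reach it is known to form taste buds in culture, which is why explants serve to study what the tissue does on its own. An explant lacks the ectoderm, mesoderm, nerves and circulation that surround the endoderm in the embryo. RNA of whole explants was sequenced, so fewer cells of a type and less RNA per cell cannot be told apart in any value below.

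Genes here are Trinity genes, clusters of transcripts assembled from the reads themselves. The deposited files give no names for these genes, and 0 of the 19649 Trinity identifiers were found in the RefSeq gene table for axolotl. No taste bud, epithelial, nerve or blood marker could therefore be looked up, the labelled tissue could not be checked against its markers, and no role can be given for any gene named below.

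Total counts ran from 67834 to 748720 at stage 41 and from 123809 to 524489 at stage 39, with 3169 to 9900 and 4476 to 8392 genes detected. Stage 41 replicate 2 was the deepest library and stage 41 replicate 4 the shallowest. Stage 39 replicates 2 and 4 were the closest pair of their stage. They correlated with each other at r = 0.713 across genes while the other 14 pairs of stage 39 libraries reached at most 0.571. Averaged over its own stage, that pair included, replicate 4 had the lowest correlation, 0.427. Replicate 2 had 0.494, within the 0.449 to 0.539 of the other stage 39 libraries. Stage 39 replicates 2 and 4 were near some stage 41 libraries and far from others. Stage 39 replicate 2 correlated at 0.599, 0.619 and 0.564 with stage 41 replicates 1, 2 and 3, and stage 39 replicate 4 at 0.547, 0.538 and 0.494. With stage 41 replicates 4 and 5 the values were 0.352 and 0.3445 for stage 39 replicate 2, and 0.324 and 0.3245 for stage 39 replicate 4. Several results below are also given without stage 39 replicates 2 and 4. All stage 41 libraries were kept in those fits, which thus treat the stages unevenly. The titles carry letters in 2 runs, A to J and K to R, whose meaning the labels do not state. The first run holds 2 libraries of stage 41 and 4 of stage 39, the second 3 of stage 41 and 2 of stage 39.

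Between stages 39 and 41 the explants kept the same leading genes. The 10 genes with the largest mean share of counts held 41.9% of the counts at stage 41 and 42.97% at stage 39, and 9 of them were the same. Of the 50 leading genes of each stage 41 were shared, and of the 100 leading genes 79 were shared. Levels of the 1412 genes with enough counts to test, averaged by stage, correlated at r = 0.833 (Spearman rho = 0.715) across genes, which are not independent replicates and share their libraries. The 595 genes with a count in each of the 11 libraries made up 63.2% to 79.2% of a library.

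The most abundant RNA of the explants belonged to 1 assembly component of 3 genes, TRINITY_DN28458_c0. Reads from near-identical sequences can be divided between such genes in uncertain ways, so their summed share is the safer measure. The component held 27.5%, 29.5%, 28.6%, 31.4% and 26.9% of the counts in stage 41 replicates 1 to 5. It held 32.3%, 39.4%, 20.4%, 47.5%, 25.97% and 13.7% in stage 39 replicates 1 to 6. All 5 stage 41 values lay within the range of the stage 39 values. The means were 28.8% ± 1.77 at stage 41 and 29.9% ± 12.45 at stage 39 (SD, n = 5 and 6), a difference of -1.07 percentage points. Without stage 39 replicates 2 and 4, which had the highest shares, the stage 39 mean was 23.1% ± 7.94 (SD, n = 4), and stage 41 was 5.71 points higher. The direction of the difference in means thus rested on those libraries, and the SD was smaller at stage 41 with and without them. Whether the spread itself differed between the stages was not tested.

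**Figure D1:**
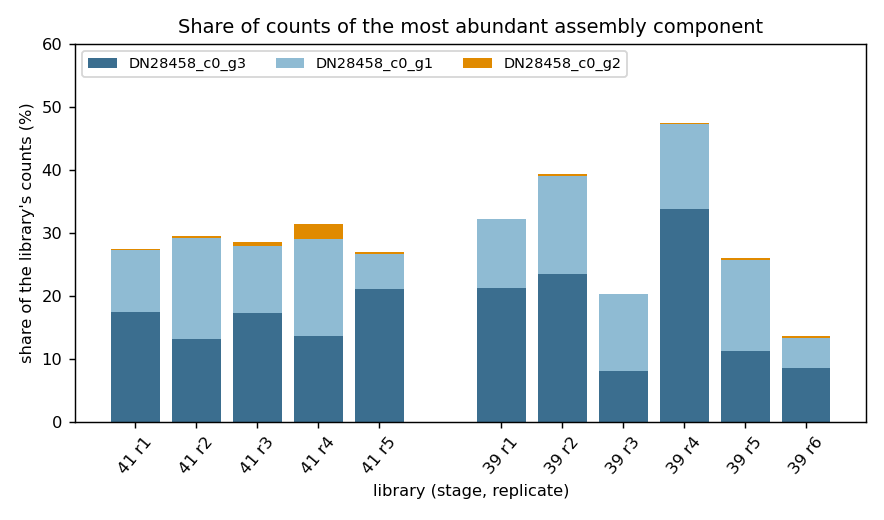
Share of each library's counts (%, bars from 0) taken by the 3 genes of the most abundant assembly component, stacked, for stage 41 replicates 1 to 5 and stage 39 replicates 1 to 6. The stacked bars lie between 26.9% and 31.4% at stage 41 and between 13.7% and 47.5% at stage 39.

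Within the component, TRINITY_DN28458_c0_g3 had a share of 16.5% ± 3.24 at stage 41 and 17.7% ± 10.2 at stage 39 (SD, n = 5 and 6). On the log2 scale its fold change, stage 41 over stage 39, was -0.69 (SE 0.56, edgeR quasi-likelihood adjusted p = 0.9995), and 0.32 (SE 0.42) without stage 39 replicates 2 and 4, which turned its direction. TRINITY_DN28458_c0_g1 took 11.5% ± 4.28 at stage 41 and 11.95% ± 3.84 at stage 39 (SD, n = 5 and 6). The log2 fold change of -0.45 (SE 0.48) likewise became 0.10 (SE 0.45) without those libraries. The third gene, TRINITY_DN28458_c0_g2, is named because it was the gene by which the 10 leading genes of stage 41 differed from those of stage 39, a choice made after its values were seen. It held 0.172%, 0.302%, 0.708%, 2.39% and 0.213% of the counts in stage 41 replicates 1 to 5, and 0.0888%, 0.304%, 0.0540%, 0.106%, 0.3125% and 0.283% in stage 39 replicates 1 to 6. Stage 41 replicates 3 and 4 lay above every stage 39 library, and the other 3 stage 41 libraries lay among them. Its log2 fold change was 1.73 (SE 0.72, edgeR adjusted p = 0.9995).

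Libraries of 1 stage were no more alike than libraries of different stages. Over the tested genes, Pearson correlations of log2 CPM (counts relative to library size) averaged 0.495 for the 10 pairs within stage 41, 0.475 for the 15 pairs within stage 39 and 0.49997 for the 30 pairs between them. The within-stage mean minus the between-stage mean was -0.0169 (one-sided exact permutation p = 0.8009 over all assignments of the 11 libraries, adjusted 0.9416 over 4 library measures). The nearest library by correlation belonged to the same stage for 5 of the 11 libraries and to the other stage for 6. Stage 41 replicate 2, the deepest library, was the nearest neighbour of stage 39 replicates 1, 3, 5 and 6, with r from 0.605 to 0.760. Stage 39 replicate 2, the deepest library of its stage with 524489 counts, was the nearest neighbour only of stage 39 replicate 4. The part of depth in these likenesses was not tested.

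**Figure D2:**
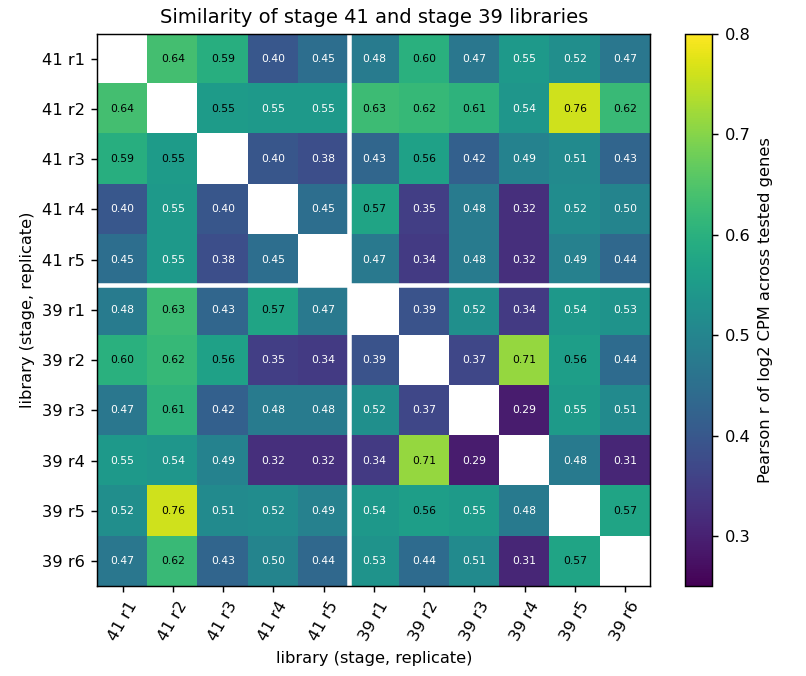
Pearson correlations of log2 CPM across the 1412 tested genes for every pair of the 11 libraries (rows and columns: stage and replicate, white lines divide stage 41 from stage 39). The highest value, 0.76, joins stage 41 replicate 2 and stage 39 replicate 5, and the blocks within a stage are no brighter than the block between stages.

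In library measures too, the stages differed by less than the libraries within them. The total count averaged 266232 ± 274559 at stage 41 and 275874 ± 149963 at stage 39 (SD, n = 5 and 6; two-sided exact permutation p = 0.9416). The number of genes expected in 60000 counts averaged 4152 ± 1102 at stage 41 and 4353 ± 917 at stage 39 (two-sided exact permutation p = 0.7403, n = 5 and 6). The 10 most abundant genes of each library held 43.5% ± 3.02 of its counts at stage 41 and 44.1% ± 11.8 at stage 39 (two-sided exact permutation p = 0.9221, n = 5 and 6). After adjustment all 3 p-values were 0.9416. As with the leading component, the share of the top genes ran only from 40.7% to 48.5% at stage 41 and from 26.5% to 57.2% at stage 39. Gene by gene, the spread did not follow this pattern: the median SD of log2 CPM was 1.51 at stage 41, 1.44 at stage 39 and 1.22 at stage 39 without replicates 2 and 4.

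The question of the comparison is which genes differ in expression between stage 41 and stage 39. Of the 1412 tested genes, 0 (0%) had an adjusted p under 0.05 in edgeR's quasi-likelihood test, with a smallest adjusted p of 0.9995. An unadjusted p under 0.05 was found for 22 genes (1.56%), 6 higher (0.425%) and 16 lower (1.13%) at stage 41. If no gene differed and the p-values were evenly spread, a share of about 0.05 would be expected under that limit. The share found was lower, so 22 genes is no excess by that measure. Why it was lower was not tested. DESeq2 also called 0 genes (0% of the 1409 with an adjusted p), with a smallest adjusted p of 0.0741, and limma-voom called 0. At an unadjusted p under 0.05 DESeq2 had 46 genes, 12 higher and 34 lower, and limma-voom 39, 21 higher and 18 lower. Without TMM scaling the 22 became 19, of which 8 were higher and 11 lower. The count of 22 was 12 of 1216 tested genes without stage 39 replicate 2. It was 39 of 1714 without stage 41 replicate 4 and 43 of 1601 without stage 41 replicate 2. Without both stage 39 replicates 2 and 4 it was 26 of 1464 tested genes, 11 higher and 15 lower.

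Differences of fitted size were mostly small, and in edgeR and DESeq2, but hardly in limma-voom, the large ones leaned towards lower levels at stage 41. The fitted log2 fold change lay within 2-fold in either direction for 1068 of the 1412 genes (75.6%). In edgeR it was over 4-fold higher at stage 41 for 7 genes and over 4-fold lower for 59. On the same genes DESeq2 gave 10 higher and 58 lower, while limma-voom gave 38 higher and 44 lower. Of the 595 genes with a count in every library, edgeR gave 1 higher and 2 lower. The edgeR median over the 1412 tested genes was -0.14 with TMM scaling and 0.04 without it, so that TMM scaling shifted it by -0.18. Relative to the TMM-scaled median, the 4 genes named for their small p stood at 3.11 (TRINITY_DN4783_c0_g1), 4.01 (TRINITY_DN26624_c0_g1), -4.44 (TRINITY_DN85_c0_g1) and -1.60 (TRINITY_DN19930_c0_g2) on the log2 scale. Without TMM scaling, 15 genes were over 4-fold higher and 32 over 4-fold lower. With 1 library left out, 7 to 24 genes were over 4-fold higher and 21 to 99 over 4-fold lower, and the lower genes were the more numerous each time. Over 4-fold lower were 21 of 1271 tested genes without stage 39 replicate 4, 27 of 1216 without replicate 2 and 37 of 1170 without replicate 5 of that stage. They were 98 of 1601, 99 of 1676 and 90 of 1714 without stage 41 replicates 2, 3 and 4. Without stage 39 replicates 2 and 4 the edgeR lean was gone: of 1464 genes tested then, 39 were over 4-fold higher and 30 over 4-fold lower. The filter changed too, since it asks for enough counts in as many libraries as the smaller stage holds. With all 11 libraries, a gene seen only at stage 39 could pass in 5 of 6. A gene seen only at stage 41 needed all 5. Without those 2 libraries this was reversed, with 5 libraries left at stage 41 and 4 at stage 39. The part of the filter in these numbers, and in those with 1 library left out, was not tested.

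The 59 genes over 4-fold lower at stage 41 were chosen for that, so their highest levels had to lie mostly at stage 39, and what follows describes which stage 39 libraries those were. In 37 of the 59 genes stage 39 replicates 2 and 4 together held over 50% of the CPM summed over the 11 libraries. They did so in 122 of all 1412 tested genes (8.64%). The library with the highest level was stage 39 replicate 4 for 31 of the 59 genes, replicate 2 for 12, replicate 3 for 8, replicate 5 for 5, replicate 1 for 2 and replicate 6 for 1. Over all tested genes these libraries were highest for 217, 132, 172, 89, 131 and 112 genes, in the same order. Of the 59 genes, 40 could be tested without replicates 2 and 4, where their median log2 fold change was -1.19, against -2.41 with all libraries, and 16 were still over 4-fold lower. Part of this drop is built in, since the libraries left out helped to choose the genes. The highest level of the 7 genes over 4-fold higher lay in stage 41 replicate 4 for 3 genes, replicate 2 for 2, and replicates 1 and 3 for 1 each. Over all tested genes these libraries were highest for 122, 53, 108 and 116 genes. Stage 39 replicate 4 also had the lowest TMM factor, 0.495, where the other 10 ran from 0.702 to 1.51. Scaled values of a library become higher as its factor becomes lower, which is why the counts without TMM scaling are given above.

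**Figure D3:**
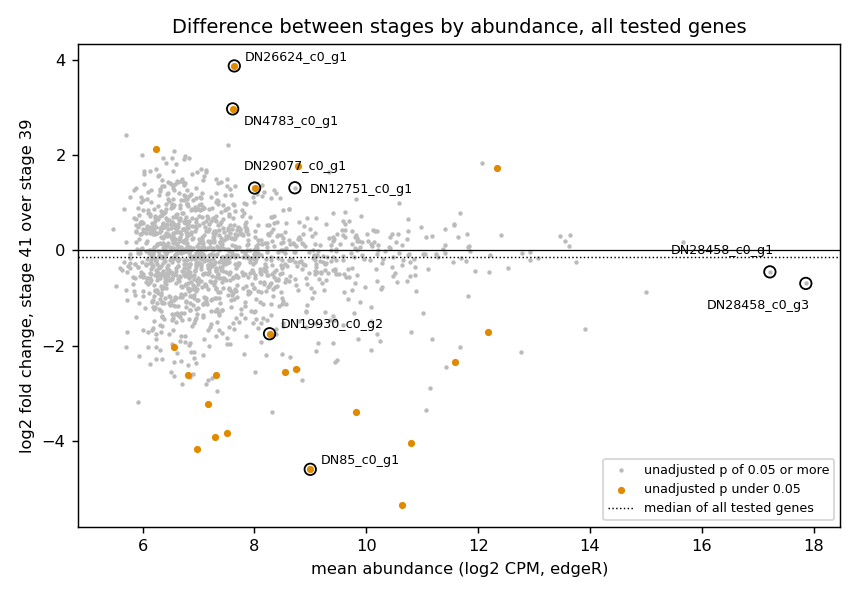
Log2 fold change, stage 41 over stage 39 (vertical axis), against mean abundance in log2 CPM (horizontal axis) for the 1412 tested genes, each a point, with named genes ringed. The 22 genes at an unadjusted p under 0.05 are coloured, 16 of them lie below 0, and the dotted median lies at -0.14.

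The genes at higher levels at stage 41 with the smallest unadjusted p came first in the rule for named genes. TRINITY_DN4783_c0_g1 had 61.3, 8.75, 661, 923 and 162 CPM in stage 41 replicates 1 to 5, scaled by TMM. It had 88.9, 6.32, 0, 66.3, 54.8 and 61.7 CPM in stage 39 replicates 1 to 6. Stage 41 replicates 3, 4 and 5 lay above every stage 39 library, and replicates 1 and 2 lay among them. The mean was 363 ± 406 CPM at stage 41 and 46.3 ± 35.4 CPM at stage 39 (SD, n = 5 and 6), with a log2 fold change of 2.97 (SE 1.13, edgeR unadjusted p = 0.0193, adjusted p = 0.9995), and 2.22 without stage 41 replicate 4. It was 2.77 without stage 39 replicates 2 and 4, 1.06 in limma-voom (95% interval -2.21 to 4.32) and 1.59 in edgeR with the letter run as a term. The 3 high libraries are those of the letters K to R. In that run the means were 582 CPM at stage 41 and 58.3 CPM at stage 39 (log2 fold change 3.19, SE 1.28). In the run A to J they were 35.0 CPM at stage 41 and 40.4 CPM at stage 39 (log2 fold change -0.11, SE 2.19), so the difference was not seen there.

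TRINITY_DN26624_c0_g1 had 1415, 30.6, 322, 65.9 and 113 CPM in stage 41 replicates 1 to 5. At stage 39 it had 145 CPM in replicate 5 and no count in the other 5 libraries. Counts in every stage 41 library thus stood against counts in 1 of 6 stage 39 libraries, but only stage 41 replicates 1 and 3 exceeded that library. The mean was 389 ± 584 CPM at stage 41 and 24.2 ± 59.3 CPM at stage 39 (SD, n = 5 and 6), and the median 113 CPM at stage 41 and 0 at stage 39. Its log2 fold change was 3.87 (SE 1.52, edgeR unadjusted p = 0.0224, adjusted p = 0.9995). The value was 2.33 without stage 41 replicate 1, 3.29 without stage 39 replicates 2 and 4, and 4.83 with the letter run as a term. In the letters A to J the stage 41 libraries had 30.6 and 1415 CPM and all 4 stage 39 libraries had no count. In K to R the stage 41 libraries ran from 65.9 to 322 CPM and the stage 39 libraries had 0 and 145 CPM (log2 fold change 1.04, SE 1.97). The other gene of its component, TRINITY_DN26624_c0_g2, was more abundant and went the other way. Its means were 985 CPM at stage 41 and 1289 CPM at stage 39 (log2 fold change -0.39, SE 0.47, edgeR adjusted p = 0.9995). The division of reads between the 2 genes is uncertain, so the difference in TRINITY_DN26624_c0_g1 need not hold for the component as a whole.

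Among genes at lower levels at stage 41, TRINITY_DN85_c0_g1 had the smallest unadjusted p of all tested genes. It had 83.5, 23.3, 0, 16.5 and 53.8 CPM in stage 41 replicates 1 to 5, and 267, 866, 2341, 1835, 41.9 and 8.42 CPM in stage 39 replicates 1 to 6. The first 4 stage 39 libraries lay above every stage 41 library, and the other 2 lay among them. The mean was 35.4 ± 33.2 CPM at stage 41 and 893 ± 988 CPM at stage 39 (SD, n = 5 and 6), with a log2 fold change of -4.59 (SE 1.29, edgeR unadjusted p = 0.00286, adjusted p = 0.9995). DESeq2 gave an adjusted p of 0.0741, and over all alternatives run the adjusted p lay between 0.0672 and 1. The 4 high libraries are exactly those of stage 39 with the letters A to J. In that run the means were 53.4 CPM at stage 41 and 1327 CPM at stage 39, and in K to R they were 23.4 CPM at stage 41 and 25.2 CPM at stage 39. The log2 fold change was -2.93 in limma-voom and -2.52 in edgeR with the letter run as a term. Leaving out single libraries moved the edgeR value between -5.18 (without stage 41 replicate 1) and -3.91 (without stage 39 replicate 3). Without stage 39 replicates 2 and 4, which are among its high libraries, the value was -4.14 (SE 1.35).

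TRINITY_DN19930_c0_g2 showed the most even difference of the 4 genes. It had 83.5, 199.7, 50.8, 214 and 108 CPM in stage 41 replicates 1 to 5, and 289, 458, 333, 729.6, 248 and 584 CPM in stage 39 replicates 1 to 6. Every stage 41 library lay below every stage 39 library. The mean was 131 ± 72.2 CPM at stage 41 and 440.4 ± 187 CPM at stage 39 (SD, n = 5 and 6), with a log2 fold change of -1.75 (SE 0.61, edgeR unadjusted p = 0.0120, adjusted p = 0.9995). In the letters A to J the means were 142 CPM at stage 41 and 452.5 CPM at stage 39. In K to R they were 124 CPM at stage 41 and 416 CPM at stage 39. With no overlap between the stages, a lower mean in each run was fixed in advance and adds no support. Its log2 fold change lay between -1.96 and -1.53 when each library was left out, and at -1.495 without both stage 39 replicates 2 and 4. It shares its assembly component with 1 other gene, as does TRINITY_DN26624_c0_g1, so their separate counts are uncertain.

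Whether these differences themselves depended on the letter run was tested with a stage by run term, added after the values above were seen. Of the 1412 genes, 0 passed an adjusted p of 0.05 for that term in edgeR, where the smallest adjusted p was 0.554 and 45 genes had an unadjusted p under 0.05. TRINITY_DN26624_c0_g1 (unadjusted p = 0.0141) and TRINITY_DN85_c0_g1 (unadjusted p = 0.0310) were among the 45, TRINITY_DN4783_c0_g1 (unadjusted p = 0.140) and TRINITY_DN19930_c0_g2 (unadjusted p = 0.943) were not, and each of the 4 had an edgeR adjusted p of 0.999. For TRINITY_DN26624_c0_g1 the term rests on 4 stage 39 libraries of the letters A to J that all lack a count. The size of its fold change in that run is thus not bounded.

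**Figure D4:**
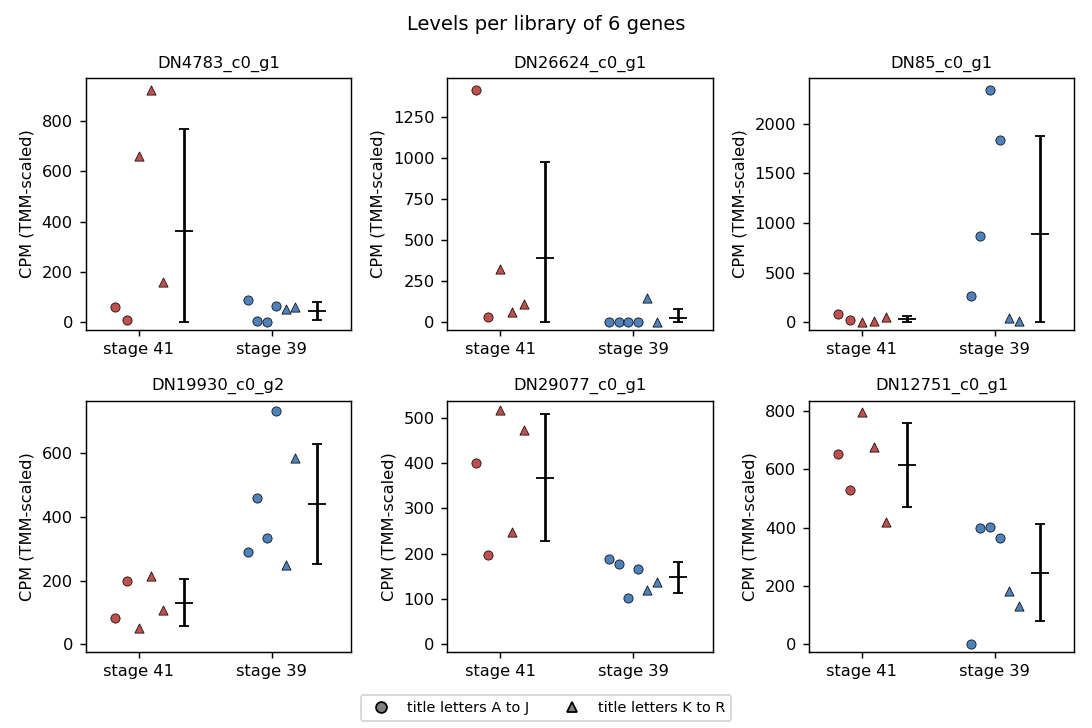
TMM-scaled CPM (linear axis, one panel per gene) in the 5 stage 41 and 6 stage 39 libraries, circles for title letters A to J and triangles for K to R; bars at the side give the mean ± SD, cut at 0. DN19930_c0_g2, DN29077_c0_g1 and DN12751_c0_g1 do not overlap between the stages, while the stage 39 level of DN85_c0_g1 is high only in the 4 libraries of letters A to J.

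Complete separation of the stages was rare. Every stage 41 library lay above every stage 39 library for 2 of the 1412 genes (0.142%), and below for 1 (0.0708%), which is TRINITY_DN19930_c0_g2. The 2 others were outside the rule for named genes and are named after their values were seen. Among 1412 genes some can separate completely by chance, and whether the counts found exceed that was not tested. A lack of overlap is thus not by itself evidence of a stage difference for any of these genes, TRINITY_DN19930_c0_g2 included. TRINITY_DN29077_c0_g1 had 401, 198, 517, 247 and 474 CPM in stage 41 replicates 1 to 5, and 189, 177, 102, 166, 119 and 137.5 CPM in stage 39 replicates 1 to 6. Its lowest stage 41 value and its highest stage 39 value lay close together. The log2 fold change was 1.31 (SE 0.55, edgeR unadjusted p = 0.0303, adjusted p = 0.9995). TRINITY_DN12751_c0_g1 had 652, 531, 796.5, 676 and 420 CPM in stage 41 replicates 1 to 5, and 0, 398, 401.5, 365, 184 and 132 CPM in stage 39 replicates 1 to 6. It was steady at stage 41, had no count in stage 39 replicate 1, and also shares its component with 1 other gene. Its log2 fold change was 1.31 (SE 0.76, edgeR unadjusted p = 0.106, adjusted p = 0.9995). With 1 library left out, 4 to 20 genes did not overlap, of 1162 to 1714 tested. There were 20 of 1601 when stage 41 replicate 2 was left out, and 5 to 8 for every other library but stage 39 replicates 4 and 5. With DESeq2 size factors 1 gene lay above and 1 below, and without stage 39 replicates 2 and 4 these numbers were 8 and 12 of 1464 tested genes. Groups of fewer libraries overlap less easily, so these counts are not comparable in size with those over 11 libraries.

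No gene that was frequent at 1 stage and absent from the other passed the filter for the test. Of the 15220 genes with a count in any of the 11 libraries, 10772 had counts at both stages, 1705 at stage 41 only and 2743 at stage 39 only. Stage 39 held more counts in all, with 1331159 counts at stage 41 and 1655246 at stage 39. The genes found at stage 41 only took a median of 1.19% of the counts of a stage 41 library, and those found at stage 39 only took a median of 1.6% of a stage 39 library. At least 4 of 5 stage 41 libraries and 0 of 6 stage 39 libraries had a count for 11 genes. At least 5 of 6 stage 39 libraries and 0 of 5 stage 41 libraries had one for 10 genes. Of these genes, 0 passed the filter for the test in either direction. The filter asks for enough counts in at least 5 libraries. Of the 11 genes of stage 41, only 1 had a count in all 5 libraries, so the others could not pass at any level. Their failure to pass thus says nothing about their abundance.

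The most complete cases were 1 gene in each direction, named after their values were seen. TRINITY_DN29188_c0_g1 had 4, 4, 2, 1 and 32 counts in stage 41 replicates 1 to 5 and none in the 6 stage 39 libraries. Most of its 43 counts came from replicate 5. Against a floor of 3 counts over the stage 39 group its observed pooled level at stage 41 was 17.8-fold higher. This ratio was 5.25-fold without stage 41 replicate 5 and 36.9-fold without stage 41 replicate 2. TRINITY_DN28454_c6_g1 had no count in the 5 stage 41 libraries and 1, 2, 2, 7, 7 and 1 counts in stage 39 replicates 1 to 6. With the same floor over the stage 41 group, that floor was 5.36-fold lower than its observed pooled level at stage 39, and 2.35-fold lower without stage 41 replicate 2. The floors allow for counting error alone, and only in the group without a count, so the ratios are not lower bounds. Reads that carry no molecular identifier are also not separate molecules.

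A more permissive filter on low counts let a few genes pass the threshold in edgeR, each resting mostly on 2 libraries. With no filter, 15220 genes were tested and 4 were called, 1 higher and 3 lower at stage 41, and with at least 5 CPM in 5 libraries 4865 were tested and 1 was called, lower. The genes are named after their values were seen. TRINITY_DN24756_c0_g1, called under both filters (edgeR adjusted p = 0.000784 and 0.0301), had 32, 59, 9, 0 and 0 counts in stage 41 replicates 1 to 5, and 3, 729, 0, 1319, 37 and 39 counts in stage 39 replicates 1 to 6. Stage 39 replicates 2 and 4 held 94.9% of its CPM. They held 97.5% of the CPM of TRINITY_DN28480_c0_g2 and 86.0% of that of TRINITY_DN27742_c0_g1, the other genes called lower. TRINITY_DN12956_c0_g2, called higher, had 103 and 496 counts in stage 41 replicates 1 and 2, and none in any of the other 9 libraries. Those replicates are the stage 41 libraries of the letters A to J. Without stage 39 replicates 2 and 4, TRINITY_DN12956_c0_g2 was the 1 gene of 14532 called with no filter (edgeR adjusted p = 0.0125). With 5 CPM in 5 libraries and the same libraries left out, 0 of 3787 genes were called. Of these, 104 had an unadjusted edgeR p under 0.05.

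The size of difference that these libraries leave room for depended on abundance. From limma-voom, the unadjusted 95% interval of the fold change stayed inside 4-fold both ways for 408 of the 1412 genes (28.9%) and within 2-fold for 44. The median half-width of the interval was 2.05 on the log2 scale, a factor of 4.13 either way. By quartile of mean abundance, it stayed inside 4-fold for 10, 44, 117 and 237 of 353 genes each, and the median half-width was 2.43, 2.18, 1.77 and 1.20 on the log2 scale. The lowest quartile ran from 44.3 to 94.5 CPM and the highest began at 297 CPM. All 44 genes with an interval within 2-fold were in the highest quartile. Intervals thus reached beyond 4-fold for most genes of each of the lower 3 quartiles and for fewer of the highest. The biological coefficient of variation estimated by edgeR was 1.08, and the parts of depth and of spread between libraries in these widths were not separated. The count of 408 was 233 of 1601 tested genes without stage 41 replicate 2.

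**Figure D5:**
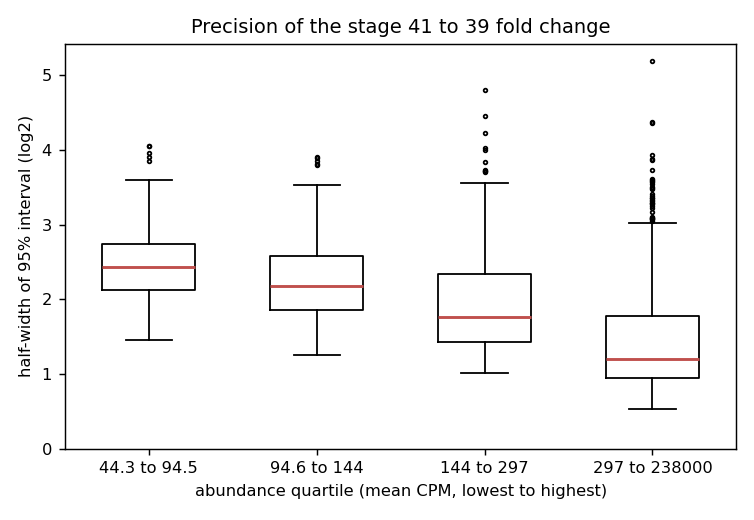
Half-width of the unadjusted limma-voom 95% interval of the log2 fold change, stage 41 over stage 39 (vertical axis, from 0), in quartiles of mean CPM with 353 genes each. Lines are medians, boxes the middle quartiles, whiskers reach 1.5 box heights and points lie beyond; the medians go from 2.43 in the lowest to 1.20 in the highest quartile.

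Among the leading genes the intervals were narrower. The 10 leading genes of each stage make 11 genes in all, and for 8 of them the 95% interval lay within 4-fold. TRINITY_DN28158_c1_g1 made up 1.20% ± 0.322 of the counts at stage 41 and 0.906% ± 0.324 at stage 39 (SD, n = 5 and 6), with an interval of its log2 fold change from -0.38 to 0.67, the narrowest of the 11. TRINITY_DN19620_c0_g2, the fourth gene by share at both stages, took 2.06% ± 2.08 at stage 41 and 3.14% ± 2.85 at stage 39 (SD, n = 5 and 6), with an interval from -4.32 to 0.16. Rank among abundant genes thus did not by itself give a narrow interval. TRINITY_DN19620_c0_g2 had a log2 fold change of -0.87 (SE 0.93). It shares its component with TRINITY_DN19620_c0_g1, which had 7104 CPM at stage 41 and 1988 CPM at stage 39 (log2 fold change 1.84, SE 1.26). Their separate counts are thus uncertain. TRINITY_DN28158_c1_g1 and TRINITY_DN19620_c0_g2 were chosen after their values were seen. TRINITY_DN13481_c0_g1, ranked 13 by share at stage 41 and 5 at stage 39, took 0.669% ± 0.608 at stage 41 and 1.40% ± 1.18 at stage 39 (SD, n = 5 and 6; log2 fold change -1.66, SE 0.91, edgeR adjusted p = 0.9995).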

How the data were processed

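Single-end RNA-seq reads of explants were processed by the authors, with Trimmomatic, Bowtie2 and RSEM per the submitters' processing notes, which give no versions. The deposited table holds expected counts per Trinity gene, and per the series' design text isoform counts were collapsed to genes with the deposited map, whose identifiers carry no measured unit (other). How the assembly was made is not given in the sources used here, and its sequence was not used. Of the deposited expected counts above 0, 8.85% were not whole, and all were rounded.

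Members and lists were chosen with earlier results of these data known. Stage 37/38 libraries entered only an alternative fit. Genes were kept by filterByExpr (edgeR 4.0.16, R 4.3.3) at a minimum count of 10, which left 1412 of 19649 genes holding 75.1% to 89.0% of a library's counts, of which 488 share an assembly component with another gene. CPM are relative to the kept genes' counts, scaled by TMM, and shares are relative to all counts. The main test was edgeR's quasi-likelihood test of stage over 11 libraries, with Benjamini-Hochberg adjustment and a threshold of 0.05. Standard errors are approximate, the fold change over the root of its F. Intervals came from limma-voom (limma 3.58.1) with sample weights, and DESeq2 1.42.0 was an alternative. Library measures had exact permutation tests over all assignments of the 11 libraries. Genes expected in 60000 counts were computed by rarefaction. Correlations used a prior count of 2.

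Named were the 2 genes in each direction with the smallest unadjusted p, called or not, and the 2 with the largest mean share. The test was tested on simulated data. Alternatives were other tools, scalings and filters, all 17 libraries, the replicate block, the letter runs and leaving out libraries. Added after seeing the data were counts summed per component, the stage by run term, and fits that combine a filter with left-out libraries. So were the component share and floor ratios with libraries left out.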

Additional observations from a re-analysis of the deposited data

Results flagged for a closer look

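A gap rule for single values far from the rest of their stage was applied to 26 groups of values and picked out 4, where chance gives about 1 in 20 for normally distributed values, a form that sparse counts do not have. The total count of stage 41 replicate 2 was 748720, while the other 4 stage 41 totals lay between 67834 and 204903. Stage 41 replicate 5 had a TMM factor of 1.29, against 1.04 to 1.08 in the other 4. TRINITY_DN26624_c0_g1 stood at 1415 CPM in stage 41 replicate 1 and between 30.6 and 322 CPM in the other 4. The same gene stood at 145 CPM in stage 39 replicate 5 and at 0 in the other 5, and it was picked for its small p from these values.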

How the results depend on the processing

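The count of 0 called genes held with DESeq2, limma-voom, both other scalings, a count in every library, all 17 libraries, the letter run as a term or 1 run at a time, counts summed per component, and each of the 11 libraries left out (0 to 0), while the smallest adjusted p ranged from 0.0572 to 1. It was 4 without a filter on low counts, 1 with at least 5 CPM in 5 libraries and 1 without a filter and without stage 39 replicates 2 and 4. The replicate block, for numbers 1 to 5, gave 0 called genes of 1162, 318 intervals within 4-fold and log2 fold changes of 5.81 for TRINITY_DN26624_c0_g1 and 2.26 for TRINITY_DN4783_c0_g1. The numbers did not pair the libraries: same-numbered libraries had deviations from their stage means correlated at -0.167 to 0.0458, and 0 of 5 stage 41 libraries correlated best with their own number. The log2 fold change of TRINITY_DN4783_c0_g1 was -0.11 in the letters A to J. It kept its sign in its other 24 alternatives, as did the other 3 genes named for their small p in theirs. Those genes were picked from these same libraries, which most alternatives reuse, so a kept sign is largely built in. It is no separate support for a difference. Some alternatives gave no fold change for a gene and are not counted here. They include the letters K to R for TRINITY_DN85_c0_g1, and A to J and leaving out stage 39 replicate 5 for TRINITY_DN26624_c0_g1. The genes whose stages do not overlap were 4 to 20 with 1 library left out (20 without stage 41 replicate 2, and 4 without stage 39 replicate 4 or 5) and 20 without stage 39 replicates 2 and 4. Intervals within 4-fold numbered 233 to 394 with 1 library left out, when 1162 to 1714 genes were tested. With 1 library left out, stage 41 minus stage 39 ran from -130300 to 40080 for the total count, from -592 to 155 for genes in 60000 counts and from -4.12 to 2.03 percentage points for the share of the 10 most abundant genes. Without stage 39 replicates 2 and 4 the total count differed by 34830 and that share by 4.32 points. The cause was not tested. Leaving out any library kept the difference in correlation between -0.0299 and -0.000201, and without both stage 39 replicates 2 and 4 it was -0.00642. The parts of depth and of spread between libraries in the width of the intervals were not separated.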
